A study of Mus musculus with 24 samples.

Results

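The genes described here are the dopamine receptors and the receptors and signaling proteins that mark medium spiny neurons of the striatum. They are the 10 genes *Drd1*, *Drd2*, *Drd3*, *Drd4*, *Drd5*, *Adora2a*, *Gpr6*, *Chrm4*, *Ppp1r1b* and *Gnal*, chosen by their symbols from the 30270 genes in 8 tables of normalized counts. Of these, 9 passed the filter on low values (a mean of at least 10 in a comparison) in every comparison, and *Drd4* passed it in none. The members and the lists below were chosen with earlier results of these data known. The shares of them that were called, set beside the share of all genes, are therefore a description and not an independent test.

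RNA was sequenced from bilateral micropunches of the nucleus accumbens (core and shell together) and of the ventral tegmental area (VTA) of 12 mice, giving 24 libraries. Wild-type mice and *Vdr*-/- mice, which lack the vitamin D receptor in every tissue, were injected intraperitoneally once with PBS or with morphine at 5 mg/kg, and each of these 4 groups held 3 mice. Tissue was taken 90 min after morphine and 60 or 90 min after PBS (both times are stated in the sources), so the injection and the time after it cannot be fully told apart. The *Vdr*-/- animals had a rescue diet rich in calcium, lactose and phosphate, so that genotype and diet cannot be told apart. In the sample descriptions the names of the PBS libraries carry a prefix that the names of the morphine libraries lack. The column names of the counts carry it for all libraries. Any difference in library preparation that goes with the prefix in the descriptions cannot be told apart from the injection. The study asked how the loss of vitamin D signaling changes the response to an opioid, and the comparisons below ask where these genes stood in each region, genotype and injection.

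Dopamine receptors fall into a D1 family (*Drd1*, *Drd5*), which raises cAMP through stimulatory G proteins, and a D2 family (*Drd2*, *Drd3*, *Drd4*), which lowers it. Medium spiny neurons, the projection neurons of the striatum, form a direct pathway that carries *Drd1* and *Chrm4* (the M4 muscarinic receptor) and an indirect pathway that carries *Drd2*, *Adora2a* (an adenosine receptor) and *Gpr6* (an orphan receptor coupled to cAMP). Both kinds of neuron carry *Ppp1r1b*, which encodes DARPP-32, a phosphatase inhibitor switched on by cAMP signaling, and *Gnal*, which encodes the G protein subunit that couples D1 and adenosine receptors to adenylyl cyclase. Dopamine neurons of the VTA carry *Drd2* as an autoreceptor.

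The libraries held between 9328726 and 30184426 reads assigned to genes. *Vdr* itself held 0 to 17 reads in every library and was not lower in *Vdr*-/- mice (0 to 17 reads) than in wild-type mice (1 to 17 reads), so the genotypes rest on the sample labels. The accumbens library of wild-type PBS mouse 2 stood farthest from its group: over 12884 genes its median absolute log2 difference from the other 2 mice was 0.20, against 0.08 to 0.16 in the other libraries. Differences of the members between accumbens groups that rest on it are also given without it.

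In every group the sum of medium spiny neuron genes was higher in the accumbens, and that of dopamine neuron genes higher in the VTA. The summed normalized count of 16 genes shared by medium spiny neurons was 107694 to 206189 in the accumbens libraries and 20928 to 26101 in the VTA libraries. The sum of 10 dopamine neuron genes was 1061 to 1826 in the accumbens. In the VTA that sum was 47110.1 to 58908 in wild-type PBS mice and 11311 to 45336 in *Vdr*-/- PBS mice. It was 4628 to 12419 in wild-type mice given morphine and 12599 to 24493 in *Vdr*-/- mice given morphine. The VTA punches of wild-type mice given morphine therefore held the lowest dopamine neuron levels of the 4 groups. The sum of 8 hypothalamic and thalamic genes was 13624 to 22209.9 in these punches and 2586 to 4757 in those of wild-type PBS mice. In *Vdr*-/- mice it was 2496 to 11003 after PBS and 3074 to 8234 after morphine.

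All 9 members that could be tested were higher in the accumbens than in the VTA of the same mice, and the order ran from *Adora2a* and *Drd1* at the top to *Drd2* and *Drd5* at the bottom. Differences were taken within each mouse on log2(normalized count + 1), with all libraries on 1 scale (recovered reads divided by size factors over the 24 libraries). By limma, 9 of 9 were called at an adjusted p under 0.05, of 16147 genes tested, of which 72.9% were called in either direction and 35.1% as higher in the accumbens. *Adora2a* showed the largest difference among the members, 6.16 ± 0.12 (SE, 12 mice, log2, adjusted p = 1.1e-12), and *Drd1* the next, 5.24 ± 0.07 (adjusted p = 1.4e-13). *Ppp1r1b* differed by 4.61 ± 0.09, *Gpr6* by 4.59 ± 0.10, *Chrm4* by 3.86 ± 0.15 and *Drd3* by 3.32 ± 0.19 on the same scale. *Gnal* differed by only 1.66 ± 0.05, *Drd2* by 1.43 ± 0.14 and *Drd5* by 0.64 ± 0.11. Each of these 9 genes was higher in the accumbens in 12 of 12 mice.

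**Figure D1:**
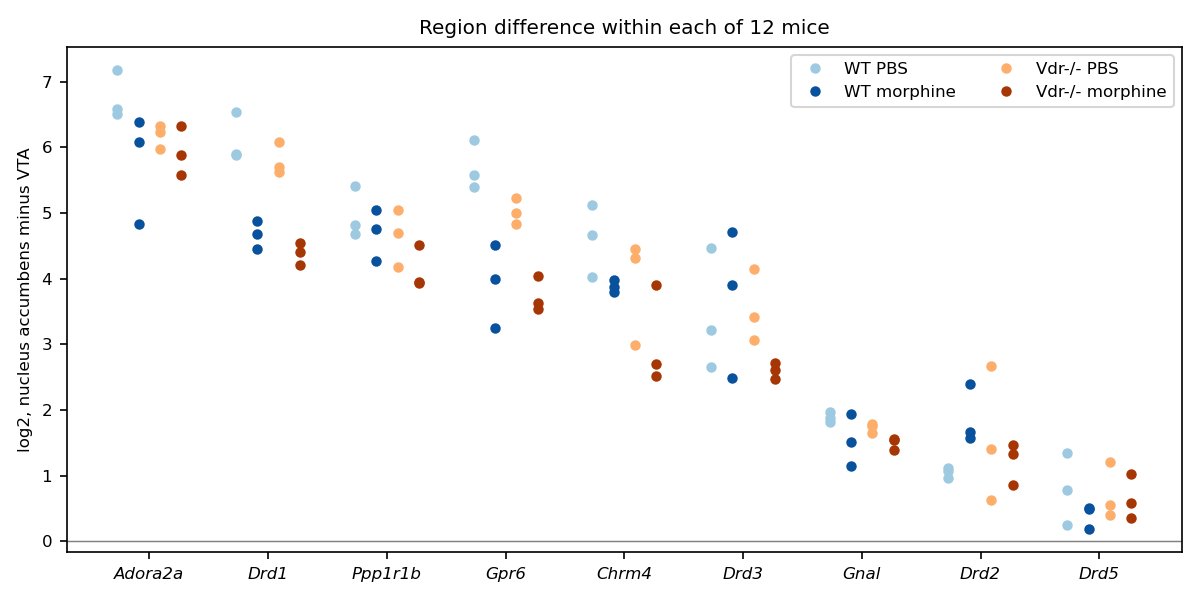
Each point is 1 mouse: log2(normalized count + 1) in the nucleus accumbens minus that in the VTA (vertical axis), for 9 member genes (horizontal axis), coloured by genotype and injection. All points lie above 0, and the smallest difference of *Adora2a*, 4.83, lies above the largest of *Drd2*, 2.67.

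Most other genes of the lists were also higher in the accumbens. Leaving out the members, of 7 direct pathway genes tested 5 were higher and 1 was lower in the accumbens (median log2 difference 2.08, against -0.02 over all genes), and of 4 indirect pathway genes 3 were higher and 1 was lower (median 1.62). *Pdyn* (prodynorphin) and *Tac1* (substance P), peptides of the direct pathway, were higher by 4.36 and 2.08 log2 units, and *Penk* (proenkephalin), the peptide of the indirect pathway, by 3.73. The genes lower in the accumbens were *Ebf1* of the direct list (-0.66) and *Plxdc1* of the indirect list (-0.44). All 14 shared medium spiny neuron genes other than *Ppp1r1b* and *Gnal* were higher (median 2.78). *Gpr52*, an indirect pathway receptor, was not analysed here.

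Levels were compared between genes only per kilobase of exon. In the accumbens *Ppp1r1b* stood first, with a median of 3751 normalized counts per kb over 12 libraries (2385 to 5575). *Gnal* followed at 1283 (1055 to 1507), then *Drd2* at 892 (629.7 to 1436), *Drd1* at 800.2 (541 to 1073), *Adora2a* at 647 (368 to 1039), *Chrm4* at 529 (342 to 787) and *Gpr6* at 334 (215 to 534). From *Gnal* down to *Gpr6*, each gene's range overlapped that of its neighbour in this order, whereas *Ppp1r1b* overlapped none and *Drd3* (46.8 to 123, median 93.0) lay below *Gpr6*. *Drd5* held 13.7 to 26.8 per kb. Within each library, however, *Drd1* per kb was below *Drd2* per kb in all 12 accumbens libraries, at ratios of 0.738 to 0.967. That order rests on the exon lengths used, 3628 bases for *Drd1* and 2547 for *Drd2*. Before division by length the accumbens median was 2903 normalized counts for *Drd1* and 2272 for *Drd2*.

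In the VTA the order changed. *Gnal* (331 to 489 per kb) and *Drd2* (156 to 739.5 per kb) were the highest, and *Ppp1r1b* held 96.6 to 239 per kb. Below them stood *Chrm4* (17.2 to 65.1 per kb), *Drd1* (11.3 to 29.1), *Drd5* (7.80 to 19.3), *Gpr6* (7.14 to 31.3), *Drd3* (2.72 to 21.6) and *Adora2a* (5.39 to 12.6). Ranges of neighbours in this order overlapped, except that *Ppp1r1b* lay above *Chrm4*. *Drd4* was near the limit of detection in both regions: it held 0 reads in 11 of 24 libraries and at most 3 in the others, a count of 0 allows up to 3 reads, and no comparison was made for it.

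The receptors *Drd1*, *Drd2*, *Chrm4* and *Gpr6*, which were lower after morphine in the accumbens of *Vdr*-/- mice (below), have promoter entries in RefSeq (GRCm38.p6), as do *Drd3*, *Drd4* and *Drd5*, while *Adora2a*, *Ppp1r1b* and *Gnal* were not matched. In the GENCODE annotation (GRCm38), *Drd1* (ENSMUSG00000021478.6) spans chromosome 13 from 54051183 to 54055705 on the minus strand and *Chrm4* (ENSMUSG00000040495.4) chromosome 2 from 91927249 to 91928688 on the plus strand. *Drd2* (ENSMUSG00000032259.8) spans chromosome 9 from 49340627 to 49408177 on the plus strand and *Gpr6* (ENSMUSG00000046922.7) chromosome 10 from 41069977 to 41072285 on the minus strand. The RefSeq starts used for *Chrm4*, *Drd2* and *Gpr6* lie upstream of the GENCODE genes, and that used for *Drd1* lies within the GENCODE gene. The windows are counted from the RefSeq starts. The 200 bases from 250 to 51 bases before the start of transcription are printed for those 4 genes, on the gene's strand. Capitals mark GGGCGG, the GC box bound by Sp1 family factors, and TGACGTCA, the cAMP response element bound by CREB family factors, on either strand.

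*Drd1*, chr13:54055709-54055908, minus strand: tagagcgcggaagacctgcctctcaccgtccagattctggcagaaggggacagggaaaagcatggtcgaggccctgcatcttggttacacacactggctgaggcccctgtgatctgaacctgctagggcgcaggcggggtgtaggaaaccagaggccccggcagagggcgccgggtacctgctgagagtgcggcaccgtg

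*Chrm4*, chr2:91921939-91922138, plus strand: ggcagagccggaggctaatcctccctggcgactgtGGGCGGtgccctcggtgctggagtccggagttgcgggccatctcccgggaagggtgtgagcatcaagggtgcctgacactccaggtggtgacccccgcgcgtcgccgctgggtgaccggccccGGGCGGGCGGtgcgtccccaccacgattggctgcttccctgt

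*Drd2*, chr9:49340153-49340352, plus strand: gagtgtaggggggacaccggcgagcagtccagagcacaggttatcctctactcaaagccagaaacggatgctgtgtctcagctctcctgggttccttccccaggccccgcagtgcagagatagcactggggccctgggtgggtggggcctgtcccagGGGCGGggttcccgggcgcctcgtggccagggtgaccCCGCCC

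*Gpr6*, chr10:41072341-41072540, minus strand: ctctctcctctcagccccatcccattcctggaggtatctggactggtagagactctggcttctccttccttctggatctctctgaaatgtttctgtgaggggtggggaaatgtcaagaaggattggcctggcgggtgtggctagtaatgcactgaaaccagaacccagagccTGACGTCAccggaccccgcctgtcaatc

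Of these windows the *Gpr6* window held TGACGTCA, 78 bases before the start, a sequence found in 0.828% of 32851 promoter windows of this length. GGGCGG occurred 3 times in the *Chrm4* window, with 2 of the matches overlapping, and 2 times in the *Drd2* window, and was found in 24.6% of all windows. The *Drd1* window held neither of them, nor CCAAT (28.4% of all windows) nor TATAAA (9.14%). These matches describe the printed letters only.

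In the accumbens of *Vdr*-/- mice, both pathways were lower after morphine than after PBS. By limma on log2(value + 1) of the deposited table, 7 of the 9 members tested fell at an adjusted p under 0.05 and none rose, against 19.1% of the 15820 genes tested that were called and 9.13% called as lower. These were the direct pathway receptors *Drd1* and *Chrm4*, the indirect pathway receptors *Drd2*, *Adora2a* and *Gpr6*, and the shared proteins *Ppp1r1b* and *Gnal*. In the same 7 genes the 3 morphine mice lay below the 3 PBS mice without overlap, which 19.4% of all genes tested also did. In these bulk samples, fewer cells of a type and less RNA per cell cannot be told apart. Values per mouse below are normalized counts on the scale common to the 24 libraries, whereas fold changes are from the fit of the table of the 2 groups compared.

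Among the direct pathway receptors, *Drd1* held 3064, 2914 and 3126 normalized counts in *Vdr*-/- PBS mice 7, 8 and 9 and 2243, 1963 and 2057 in morphine mice 2.0, 2.1 and 2.2. It fell by 0.54 ± 0.06 on the log2 scale (SE, 3 against 3 mice, 1.45-fold, adjusted p = 0.000249). *Chrm4* held 793, 755 and 804 after PBS and 615, 518 and 532 after morphine, and fell by 0.50 ± 0.07 (adjusted p = 0.00115). The PBS mice of both genes lay close together, and the highest morphine mouse was mouse 2.0 in each.

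Among the indirect pathway receptors, *Adora2a* held 2268, 2230.4 and 2687 normalized counts after PBS and 1407, 1239.9 and 1173 after morphine. It fell by 0.91 ± 0.08 (1.87-fold, adjusted p = 0.000131), the largest fall among the members. *Gpr6* held 652, 666 and 745 after PBS and 439.9, 383 and 409 after morphine, and fell by 0.74 ± 0.08 (adjusted p = 0.000233). The D2 receptor *Drd2* held 2612, 2443 and 2975 after PBS and 1909, 1604 and 1817 after morphine, and fell by 0.59 ± 0.08 (1.50-fold, adjusted p = 0.00075).

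*Ppp1r1b*, carried by both kinds of neuron, held 13284, 12621 and 14938 normalized counts after PBS and 8417, 7082 and 6984 after morphine, a fall of 0.86 ± 0.08 (1.81-fold, adjusted p = 0.000133). *Gnal* showed the smallest change that was called: 14449, 14569 and 15559.9 after PBS and 12838, 11792 and 11949 after morphine, a fall of 0.28 ± 0.06 (adjusted p = 0.0055). With quantile normalization the *Gnal* difference was -0.12 and was not called (adjusted p = 0.154). The D2-family receptor *Drd3*, which is enriched in the accumbens and in islands of small granule cells nearby, and the D1-family receptor *Drd5* were not called. *Drd3* held 155, 205 and 164 after PBS and 171, 146 and 202 after morphine (log2 difference -0.01, 95% interval -0.32 to 0.30). *Drd5* held 63.9 to 71.8 after PBS and 61.6 to 68.7 after morphine (-0.04, -0.36 to 0.28).

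**Figure D2:**
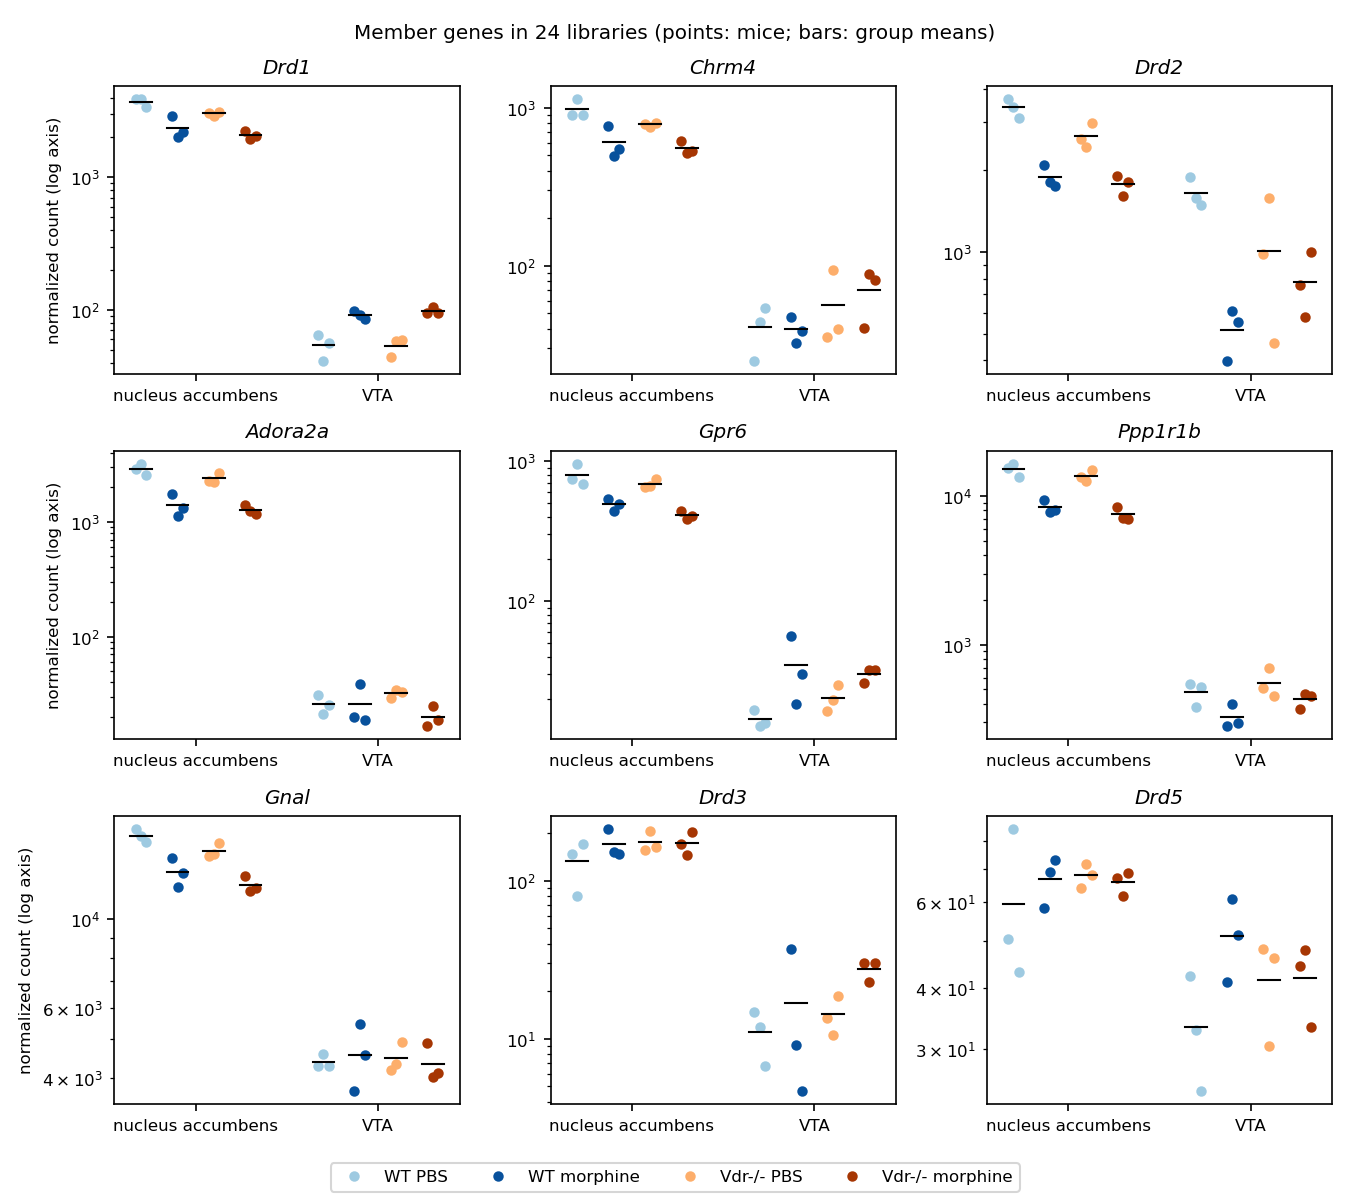
Normalized counts (log axis, different for each gene) of 9 member genes in 24 libraries, by region and by genotype and injection (colours); points are mice and bars are means of 3 mice. In the nucleus accumbens 7 genes lie lower after morphine in both genotypes, while *Drd1* in the VTA lies higher after morphine.

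In the accumbens of wild-type mice the same comparison called 3 of the 9 members, *Adora2a*, *Drd2* and *Ppp1r1b*, all as lower, against 0.813% of 15749 genes called and 0.400% called as lower. In 7 members the morphine mice again lay below the PBS mice without overlap, as did 13.2% of all genes tested. *Drd2* held 3657, 3433 and 3129 normalized counts in PBS mice 1, 2 and 3 and 2101, 1816 and 1747 in morphine mice 1.0, 1.1 and 1.2. It fell by 0.84 ± 0.10 (SE, 3 against 3 mice, 1.79-fold, adjusted p = 0.0257). *Adora2a* held 2907, 3180.4 and 2536 after PBS and 1732, 1126 and 1325 after morphine, and fell by 1.05 ± 0.16 (2.06-fold, adjusted p = 0.0390). *Ppp1r1b* held 15391, 16323 and 13347 after PBS and 9347, 7745 and 8007 after morphine, and fell by 0.83 ± 0.11 (adjusted p = 0.0347).

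The direct pathway receptors had differences of like size that were not called in wild-type mice. *Drd1* held 3893, 3889 and 3398 normalized counts after PBS and 2892, 2022 and 2215 after morphine (log2 difference -0.65 ± 0.14, adjusted p = 0.0824). *Chrm4* held 903, 1134 and 896 after PBS and 768, 492 and 549.8 after morphine (-0.70 ± 0.17, adjusted p = 0.122). In both genes morphine mouse 1.0 lay nearest to the PBS mice. *Gpr6* (744, 953 and 691 after PBS and 539, 438 and 497 after morphine) differed by -0.67 ± 0.13 with an adjusted p of 0.0748. *Gnal* differed by -0.30 ± 0.10 (adjusted p = 0.197), *Drd3* by 0.42 ± 0.29 and *Drd5* by 0.24 ± 0.26.

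These calls in wild-type mice turned on single libraries. Without PBS mouse 2, the library that stood apart, 5 members were called (*Adora2a*, *Drd1*, *Drd2*, *Gpr6* and *Ppp1r1b*). Without PBS mouse 1, PBS mouse 3, morphine mouse 1.1 or morphine mouse 1.2, 0 were called, and without morphine mouse 1.0 *Adora2a* alone was called, although the log2 differences of the 7 members kept their sign in each of these fits. Without PBS mouse 2 those differences ran from -0.31 (*Gnal*) to -0.98 (*Adora2a*), while *Drd3* differed by 0.09 and *Drd5* by 0.51. DESeq2 on recovered reads called 6. An exact permutation test, two-sided, gave p = 0.1 for each of the 7 members in each genotype, the smallest p that 20 arrangements of 3 against 3 mice allow.

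The fall after morphine was not shown to differ between the genotypes. The interaction in the accumbens called 0 of 9 members by limma, against 0% of 15788 genes, with 0 members at an unadjusted p under 0.05, and edgeR on recovered reads also called 0. The difference of the 2 effects (*Vdr*-/- minus wild-type) was 0.25 for *Drd2* (95% interval -0.05 to 0.56), 0.11 for *Drd1* (-0.23 to 0.46), 0.14 for *Adora2a* (-0.29 to 0.57) and -0.03 for *Ppp1r1b* (-0.36 to 0.30), in log2 units. It was 0.20 for *Chrm4*, -0.06 for *Gpr6*, 0.01 for *Gnal*, -0.43 for *Drd3* and -0.28 for *Drd5*. Without wild-type PBS mouse 2 it was 0.25 for *Drd2*, 0.09 for *Drd1*, 0.07 for *Adora2a*, -0.08 for *Ppp1r1b*, 0.10 for *Chrm4*, -0.19 for *Gpr6*, 0.02 for *Gnal*, -0.10 for *Drd3* and -0.55 for *Drd5*, and again 0 members were called, with 0 of 15802 genes.

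**Figure D3:**
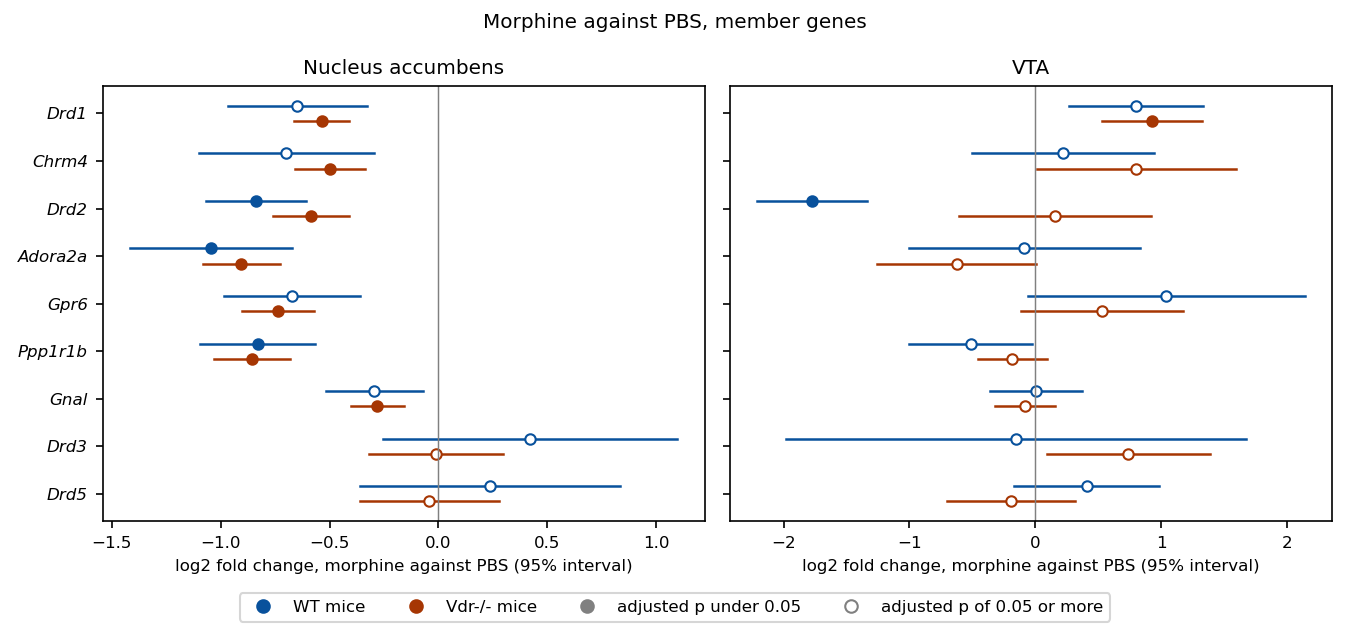
Log2 fold change of morphine against PBS with its 95% interval (horizontal axis) for 9 member genes in the nucleus accumbens and the VTA, in wild-type and *Vdr*-/- mice; filled points have an adjusted p under 0.05. In the nucleus accumbens 7 genes lie below 0 in both genotypes, and in the VTA *Drd2* lies at -1.77 in wild-type mice and at 0.16 in *Vdr*-/- mice.

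The wider lists, whose counts include the members, showed which genes of these neurons moved in the accumbens. In *Vdr*-/- mice all 16 shared medium spiny neuron genes fell after morphine (median log2 difference -0.57, against -0.01 over all genes). Beside the members, the largest falls were those of *Scn4b*, a sodium channel subunit (-1.13), *Rasgrp2*, a Rap exchange factor (-0.90), *Rasd2* (-0.80) and the phosphodiesterase *Pde10a* (-0.71). In wild-type mice 7 of the 16 fell and 9 were not called (median -0.62), and *Scn4b* (-1.07), *Rasgrp2* (-0.99), *Rasd2* (-0.83) and *Pde1b* (-0.79) fell most beside the members. Across the 12 alternatives, which leave out each mouse in turn or change the tool, pseudocount, filter or scaling, 14 to 16 of the 16 were called in *Vdr*-/- mice and 0 to 14 in wild-type mice, with 16 of 16 below 0 in every one.

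Within the direct pathway list, the receptors had larger differences than the neuropeptides, although this was not tested. In *Vdr*-/- mice 5 of 9 genes fell, 1 rose and 3 were not called (median -0.28). *Slc35d3*, which carries D1 receptors to the cell surface, fell by 0.47, *Tac1* by 0.28 and *Pdyn* by 0.24. *Isl1*, a transcription factor of direct pathway neurons and also of cholinergic interneurons, rose by 0.67, from 160.3 to 210.2 normalized counts after PBS to 280.2 to 306 after morphine. In wild-type mice 0 of the 9 were called by limma, with 4 at an unadjusted p under 0.05 (median -0.20).

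Within the indirect pathway list, 5 of 7 genes fell in *Vdr*-/- mice and none rose (median -0.65). *Penk* fell by 0.65 and *Plxdc1* by 0.85, beside *Drd2*, *Adora2a* and *Gpr6*, whereas *Sp9* (-0.12) and *Grik3* (-0.18) were not called. In wild-type mice 2 of 7 fell, *Drd2* and *Adora2a*, and *Penk* differed by -0.73 with an adjusted p of 0.0804 (median of the list -0.67). The list medians of the 2 pathways thus stood at -0.28 and -0.65 in *Vdr*-/- mice, and at -0.20 and -0.67 in wild-type mice; the difference between the lists was not tested. At the level of the receptors themselves, the ratio of *Drd1* to *Drd2* per kb was 0.747, 0.795 and 0.762 in wild-type PBS mice and 0.967, 0.782 and 0.890 in wild-type morphine mice. It was 0.824, 0.838 and 0.738 in *Vdr*-/- PBS mice and 0.825, 0.859 and 0.795 in *Vdr*-/- morphine mice, so the ranges overlapped in both genotypes.

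**Figure D4:**
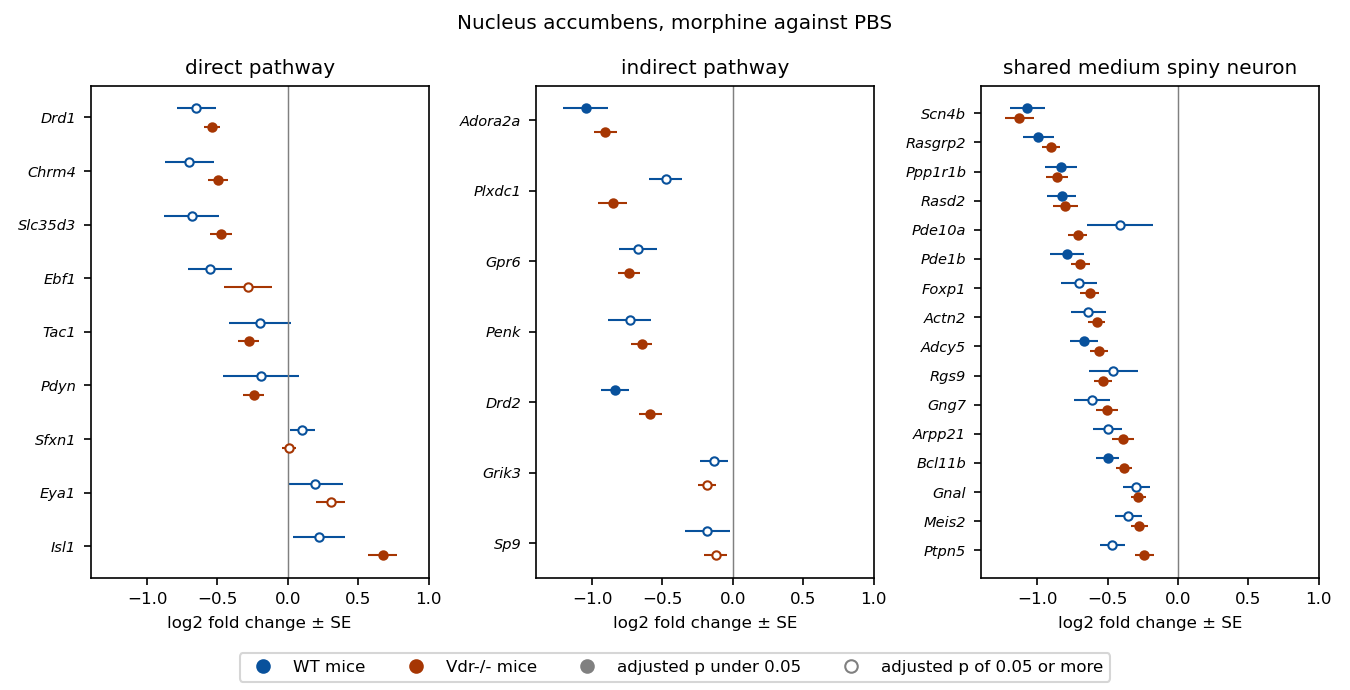
Log2 fold change ± SE of morphine against PBS in the nucleus accumbens (horizontal axis) for the genes of the direct pathway, indirect pathway and shared medium spiny neuron lists, in wild-type and *Vdr*-/- mice; filled points have an adjusted p under 0.05. All 16 shared genes lie below 0 in both genotypes, and *Isl1* of the direct list rose by 0.67 in *Vdr*-/- mice.

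Downstream of the receptors, 6 of 22 dopamine receptor signaling genes fell and 3 rose in *Vdr*-/- mice (median -0.05). The adenylyl cyclase *Adcy5* (-0.56), the phosphatase subunits *Ppp1ca* (-0.44) and *Ppp3ca* (-0.42) and the stimulatory G protein subunit *Gnas* (0.34) changed most. In wild-type mice *Adcy5* (-0.67) and *Ppp1ca* (-0.58) fell and the other 20 were not called.

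Markers of other cells moved with the injection in the same punches. In *Vdr*-/- mice 4 of 5 septum genes rose after morphine, among them *Trpc4* (1.03), *Prdm16* (0.74) and *Trpc5* (0.59), and the summed level of the list was 3067 to 3829 normalized counts after PBS and 4297 to 4898 after morphine. In wild-type mice the sum was 2078 to 3563 after PBS and 3254 to 4766 after morphine, with 0 of 5 genes called by limma and 3 at an unadjusted p under 0.05. Of 8 astrocyte genes 4 rose and 1 fell in *Vdr*-/- mice, *Gfap* by 1.28 and *Aqp4* by 0.63, and *Gfap* also rose in wild-type mice (0.78). Of 5 cholinergic interneuron genes 2 rose in *Vdr*-/- mice, *Zic4* (1.98) and *Lhx8* (1.08), with sums of 829 to 1369 after PBS and 1342 to 1654 after morphine. *Chat* of the same list held 240 to 351 after PBS and 248 to 353 after morphine in these mice and was not called. The sum of 8 cortical excitatory neuron genes was 12989.7 to 22249.9 after PBS and 11869 to 13774 after morphine in *Vdr*-/- mice, and 8281 to 18029 and 8693 to 14776 in wild-type mice. Of 7 striatal GABA interneuron genes 1 rose (*Calb2*, 0.99) and 3 fell in *Vdr*-/- mice (*Pvalb*, -0.71). In the same mice 5 of 9 microglia genes fell, and of 10 oligodendrocyte genes 5 fell and 1 rose. The sum of 6 choroid plexus genes was 398 to 546 after PBS and 577 to 667 after morphine in *Vdr*-/- mice. In wild-type mice it was 372 to 533 and 559 to 665. For 8 hypothalamic and thalamic genes the sum was 1294 to 1641 and 1704 to 2085 in *Vdr*-/- mice. In wild-type mice that sum was 861 to 1480 and 1564 to 2035. Of these 2 lists, *Otx2* (1.90) and *Prkcd* (1.39) rose and *Rora* (-0.16) fell in *Vdr*-/- mice. The part of these cells in the members' values was not tested.

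Among the 5 genes whose pattern over the 12 accumbens libraries was most like that of *Drd1* (log2 values on the common scale, Pearson r, among 12278 genes with a mean of at least 50) stood *Inf2* (r = 0.989), *Gnal* (0.985), *Gabrd* (0.981) and *Pde1b* (0.977). Among the 5 most like *Drd2* stood *Adcy5* (0.991), *Pde1b* (0.985), *Gnb5* (0.978) and *Syndig1l* (0.978). These 12 libraries share the difference between injections, and the values are a description of likeness only.

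Between the genotypes, no member was called in either region or injection. In the accumbens after PBS, limma called 0 of 9 members, against 0.0690% of 15933 genes, and 3 had an unadjusted p under 0.05. *Drd2* differed by -0.34 (*Vdr*-/- minus wild-type, log2, 95% interval -0.57 to -0.11, adjusted p = 0.461), *Chrm4* by -0.30 (-0.53 to -0.07, adjusted p = 0.480) and *Drd1* by -0.28 (-0.47 to -0.10, adjusted p = 0.427). In 4 of 9 members, *Drd1*, *Drd2*, *Chrm4* and *Gnal*, every *Vdr*-/- mouse lay below every wild-type mouse (for *Drd1*, 2914 to 3126 against 3398 to 3893 normalized counts), as in 9.68% of all genes tested. *Adora2a* differed by -0.25, *Gpr6* by -0.19, *Ppp1r1b* by -0.13, *Gnal* by -0.11, *Drd5* by 0.26 and *Drd3* by 0.47. Without wild-type PBS mouse 2 the differences were -0.34 for *Drd2*, -0.26 for *Drd1*, -0.20 for *Chrm4*, -0.18 for *Adora2a*, -0.06 for *Gpr6*, -0.08 for *Ppp1r1b*, -0.13 for *Gnal*, 0.53 for *Drd5* and 0.14 for *Drd3*, and 0 members were called, with 28 of 15962 genes. All 16 shared medium spiny neuron genes had a negative difference (median -0.19, against 0.01 over all genes), but 0 were called and 3 had an unadjusted p under 0.05. These PBS mice are the ones used in the morphine comparisons above.

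After morphine the accumbens comparison of genotypes also called 0 of 9 members, against 0.192% of 15638 genes, with 1 at an unadjusted p under 0.05. That gene was *Gpr6* (-0.26, 95% interval -0.45 to -0.06, adjusted p = 0.531). *Drd1* differed by -0.17 (-0.40 to 0.06), *Drd2* by -0.09 (-0.26 to 0.09) and *Ppp1r1b* by -0.16 (-0.34 to 0.02). *Chrm4* differed by -0.10, *Adora2a* by -0.11, *Gnal* by -0.10, *Drd3* by 0.03 and *Drd5* by -0.02, and the groups overlapped in all 9 members. DESeq2 and edgeR on recovered reads called 0 members in both of these comparisons.

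In the VTA, *Drd2* was the member that stood out in wild-type mice. It held 1884, 1578 and 1490.3 normalized counts in PBS mice 1, 2 and 3 and 397, 608 and 552 in morphine mice 1.0, 1.1 and 1.2. The deposited table of this comparison holds 3 morphine mice and PBS mice 1 and 2. There *Drd2* fell by 1.77 ± 0.18 (SE, log2, 3.42-fold, adjusted p = 0.00996), the 1 member called of 9, against 3.65% of 16187 genes. With all 3 PBS mice it was also called, together with *Drd1*. Without morphine mouse 1.2, PBS mouse 1 or PBS mouse 2 the difference was -1.83, -1.64 and -1.91 and was not called (adjusted p = 0.0556, 0.151 and 0.0948).

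The genes that define dopamine neurons fell in the same libraries. Of 10 dopamine neuron genes 8 fell in wild-type mice and none rose (median -3.20), among them *Slc6a3* (the dopamine transporter, -4.68), *En1* (-4.24), *Chrna6* (-3.65) and *Th* (tyrosine hydroxylase, -3.35). *Slc6a3* held 18918, 14982 and 14334 normalized counts in wild-type PBS mice and 471, 2613 and 237 in wild-type morphine mice. The fall of *Drd2*, 1.77, was smaller than those of *Slc6a3* and *Th*, a difference that was not tested, and 0 to 10 of the 10 genes were called across 11 alternatives. The hypothalamic peptide *Pmch*, which marks neurons of the lateral hypothalamus, held 101, 1471 and 115 normalized counts in the wild-type PBS punches and 8892, 2024 and 11867 in the wild-type morphine punches. *Hcrt*, the orexin gene of the same area, held 1.34, 151 and 5.96 and 2807, 787 and 4108. The part of the position of the punch in the difference of *Drd2* was not tested.

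In *Vdr*-/- mice, *Drd2* in the VTA held 986, 1587 and 465 normalized counts in PBS mice 7, 8 and 9 and 758, 579 and 1005 in morphine mice 2.0, 2.1 and 2.2, and the groups overlapped. The table holds PBS mice 7 and 9, and *Drd2* differed by 0.16 ± 0.32 there (adjusted p = 0.779). With PBS mouse 8 included the difference was -0.24. *Slc6a3* in the same mice held 8372, 13570.1 and 2157 after PBS and 4025, 2636 and 6176 after morphine, and 0 of 10 dopamine neuron genes fell and 1 rose. *Pmch* held 4145, 51.5 and 3065 normalized counts in the same PBS mice and 2600, 2529 and 992 in the same morphine mice. *Hcrt* held 845, 7.93 and 492 and 709, 506 and 57.8. The fit above and the interaction below rest on PBS mice 7 and 9, and the part of the position of these punches was not tested. The interaction of *Drd2* between the genotypes was 1.93 ± 0.44 (95% interval 0.95 to 2.91, adjusted p = 0.150), and 0 of 9 members were called by limma, against 0.0553% of 16288 genes, with 1 at an unadjusted p under 0.05 (*Drd2*) and 0 by edgeR. The interaction was 0.13 for *Drd1*, 0.58 for *Chrm4*, -0.54 for *Adora2a*, -0.51 for *Gpr6*, 0.33 for *Ppp1r1b*, -0.09 for *Gnal*, 0.90 for *Drd3* and -0.60 for *Drd5*. Without PBS mouse 7 the *Drd2* interaction was 2.47, a fit that leaves PBS mouse 9 alone in the *Vdr*-/- PBS group. Over 13 alternatives the *Drd2* interaction ran from 1.33 to 2.47.

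The likeness of *Drd2* to 2 genes of dopamine neurons, *Slc6a3* and *Th*, was measured from library to library within each injection. Over the 6 PBS libraries of the VTA, log2 *Drd2* and log2 *Slc6a3* had a Pearson r of 0.994 (exact permutation p = 0.00556, adjusted over 4 relations 0.0111) and a Spearman rho of 0.829 (p = 0.0583, exact, adjusted 0.0583). Without the 2 libraries farthest from the median of *Slc6a3* the r was 0.911. Over the 6 morphine libraries r was 0.772 (exact permutation p = 0.0653, adjusted 0.0653) and rho 0.886 (exact p = 0.0333, adjusted 0.0583), and without the 2 farthest r was 0.996. With *Th* in place of *Slc6a3*, r was 0.995 after PBS (exact p = 0.00556, adjusted 0.0111) and 0.852 after morphine (exact p = 0.0319, adjusted 0.0426), with the same values of rho, and 0.952 and 0.992 without the 2 farthest libraries. After adjustment 3 of the 4 Pearson relations and 0 of the 4 Spearman relations had a p under 0.05. Both genotypes enter each of these relations, and the permutations did not hold genotype fixed. A difference between the genotypes can therefore enter these p-values.

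**Figure D5:**
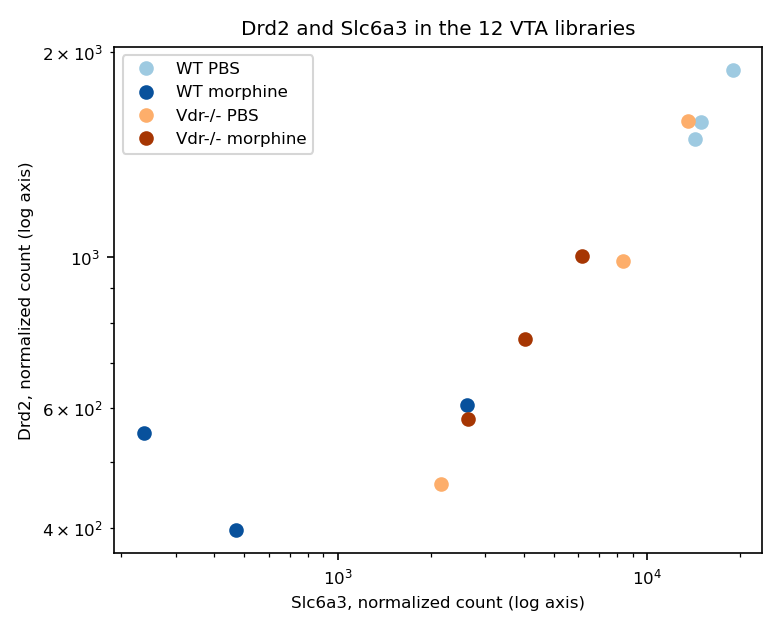
Normalized counts of *Drd2* (vertical, log axis) against those of *Slc6a3*, the dopamine transporter (horizontal, log axis), in the 12 VTA libraries; points are mice, coloured by genotype and injection. The 3 wild-type PBS mice lie highest on the *Slc6a3* axis (14334 to 18918), and the wild-type morphine mice lie between 237 and 2613.

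*Drd1* moved the other way in the VTA. It held 44.5, 58.1 and 58.9 normalized counts in *Vdr*-/- PBS mice and 94.97, 105.7 and 95.57 in *Vdr*-/- morphine mice, and rose by 0.92 ± 0.17 (log2, 1.90-fold, adjusted p = 0.0229, 3 morphine mice against PBS mice 7 and 9). It was the 1 member called of 9 in that comparison, against 10% of 16364 genes. Without morphine mouse 2.1, morphine mouse 2.2 or PBS mouse 7 it was not called (differences 0.88, 0.95 and 0.73, adjusted p = 0.0666, 0.0748 and 0.161). In wild-type mice *Drd1* held 64.4, 41.0 and 56.6 after PBS and 97.8, 91.3 and 85.1 after morphine, a difference of 0.80 ± 0.22 (adjusted p = 0.0971). In both genotypes the lowest morphine mouse lay above the highest PBS mouse. Many genes did the same in the deposited comparisons, which hold 2 PBS mice each: 3450 of 16187 in wild-type mice and 3878 of 16364 in *Vdr*-/- mice. Markers of glia differed between the injections in the same punches. The summed level of 10 oligodendrocyte genes was 202346 to 206579.8 normalized counts after PBS and 135839 to 151874 after morphine in *Vdr*-/- mice, where 8 of the 10 fell, among them *Opalin* (-1.36) and *Cnp* (-0.77). In wild-type mice the sum was 204818 to 226554 and 102161 to 175060, with 0 of 10 called by limma, 10 at an unadjusted p under 0.05 and 0 to 10 called over 11 alternatives. The sum of 9 microglia genes was 4793 to 6556 after PBS and 3823 to 4326 after morphine in *Vdr*-/- mice (3 of 9 fell), and 5915 to 6872 and 3567 to 4019 in wild-type mice (6 of 9 fell). The part of these cells in the difference of *Drd1* was not tested.

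The other members were not called in the VTA after morphine. *Gpr6* held 12.8 to 16.8 normalized counts in wild-type PBS mice and 18.3 to 55.9 in wild-type morphine mice (log2 difference 1.04, 95% interval -0.06 to 2.14), and 16.3 to 25.2 and 25.8 to 32.2 in *Vdr*-/- mice (0.53, -0.11 to 1.18). *Adora2a* differed by -0.09 and -0.62 in wild-type and *Vdr*-/- mice, *Chrm4* by 0.22 and 0.80, *Ppp1r1b* by -0.51 and -0.18, *Gnal* by 0.01 and -0.08, *Drd5* by 0.41 and -0.19, and *Drd3* by -0.16 and 0.74. *Drd3* rested on 4 to 45 reads per library in the VTA. Of the wider lists, *Pdyn* (3.53) rose in wild-type mice, while in *Vdr*-/- mice *Actn2* (0.998) and *Rgs9* (0.53) rose and *Scn4b* fell by 1.02. Beyond the members, no other direct, indirect or shared gene was called in the VTA after morphine. *Pdyn* held 21.5 to 52.9 normalized counts in wild-type PBS mice and 173 to 629 in the wild-type morphine punches, which also held more *Pmch* and *Hcrt*. The part of hypothalamic cells in the *Pdyn* difference was not tested. Over 11 alternatives, 0 to 5 genes of the direct list were called in wild-type mice and 0 to 5 of the shared list in *Vdr*-/- mice.

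Between the genotypes in the VTA, limma called 0 of 9 members after PBS (0.390% of 16425 genes) and 0 of 9 after morphine (0.0624% of 16029 genes), as did DESeq2 and edgeR, with 1 and 3 members at an unadjusted p under 0.05. After PBS, *Drd2* differed by -0.87 (*Vdr*-/- minus wild-type, 95% interval -1.74 to -0.00, adjusted p = 0.350) and *Drd1* by 0.01 (-0.48 to 0.49). The *Drd2* difference was -0.40 without *Vdr*-/- mouse 9 (adjusted p = 0.541) and -1.28 without *Vdr*-/- mouse 8 (adjusted p = 0.0583). *Chrm4* differed by 0.38, *Adora2a* by 0.32, *Gpr6* by 0.48, *Ppp1r1b* by 0.19, *Gnal* by 0.03, *Drd3* by 0.37 and *Drd5* by 0.32. The 3 *Vdr*-/- PBS mice spread more widely in *Drd2* (465 to 1587 normalized counts) than the 3 wild-type mice (1490.3 to 1884), as they did in *Slc6a3* (2157 to 13570.1 against 14334 to 18918). After morphine *Drd2* differed by 0.58 (0.07 to 1.09, adjusted p = 0.533), *Ppp1r1b* by 0.41, *Chrm4* by 0.76 and *Drd3* by 1.14 (-0.32 to 2.60). *Drd1* differed by 0.12, *Adora2a* by -0.27, *Gpr6* by -0.07, *Gnal* by -0.06 and *Drd5* by -0.27.

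The effect of morphine on *Drd1* differed between the 2 regions of the same mice. The within-mouse difference (accumbens minus VTA) of *Drd1* was lower after morphine than after PBS by 1.43 ± 0.19 log2 units in wild-type mice (adjusted p = 0.00193) and by 1.41 ± 0.19 in *Vdr*-/- mice (adjusted p = 0.0145). The region difference of *Gpr6* was lower by 1.78 ± 0.29 in wild-type mice (adjusted p = 0.00670) and by 1.29 ± 0.29 in *Vdr*-/- mice, where it was not called (adjusted p = 0.0841). Thus 2 of 9 members were called in wild-type mice, against 6.69% of 16147 genes, and 1 of 9 in *Vdr*-/- mice, against 0.545%. *Adora2a* differed by -0.995 (adjusted p = 0.102) and -0.25, and *Drd2* by 0.83 (adjusted p = 0.227) and -0.35, in wild-type and *Vdr*-/- mice. In the same order *Chrm4* differed by -0.72 and -0.88, *Ppp1r1b* by -0.29 and -0.51, *Gnal* by -0.35 and -0.24, *Drd3* by 0.25 and -0.94, and *Drd5* by -0.40 and -0.07.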

How the data were processed

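Libraries of mRNA were made by the authors with a directional kit, trimmed with Trimmomatic 0.36, mapped with STAR 2.4.2a to the GENCODE mouse annotation (GRCm38) and counted per gene. What they deposited is a normalized signal: in each of 8 tables, the reads on a gene divided by that library's size factor, without a log. Within each library 100% of the values were whole multiples of 1 read (tolerance 0.01), so the counts of reads were recovered. The VTA tables of morphine against PBS lack wild-type PBS mouse 3 and *Vdr*-/- PBS mouse 8.

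Genes with a mean of at least 10 were tested with limma 3.58.1 (lmFit, eBayes with trend) on log2(value + 1), two-sided, with Benjamini-Hochberg adjustment over all genes and a threshold of 0.05. Mice are separate animals by the labels, and both regions of a mouse share its number, so that the region comparison used within-mouse differences (the replicate block). Confidence intervals are 95%. DESeq2 1.42.0 and edgeR 4.0.16 (R 4.3.3) on recovered reads, a pseudocount of 5, no filter, quantile normalization, library totals, all PBS mice and leaving out each mouse were the alternatives, and the test was checked on simulated data. Exact permutation tests, figures and sums used Python 3.11.15, scipy 1.17.1 and matplotlib 3.10.9. Gene lengths are unions of GENCODE M21 exons. The precision is limited by 3 mice per group and by the reads on each gene, and intervals cover the spread between these mice.

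The 9 members that passed the filter are named in every comparison. Of each other list, up to 4 genes with the largest change among those called are named, all direct and indirect pathway genes may be, and for *Drd1* and *Drd2* genes among the 5 most like them. *Chat*, *Pmch* and *Hcrt* are given beside these. The lists hold dopamine receptors, direct pathway, indirect pathway and shared medium spiny neuron genes, dopamine receptor signaling and markers of dopamine neurons and of other cells of either punch. One gene of the shared medium spiny neuron list is not reported here and is in none of the counts, medians and sums of that list. Members and lists were chosen with earlier results of these data known.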

Additional observations from a re-analysis of the deposited data

Results flagged for a closer look

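The effect of morphine differed between the nucleus accumbens and the VTA of the same mice for *Drd1* and *Gpr6*, tested as the change of the within-mouse region difference. For *Drd1* the change was -1.43 log2 units in wild-type mice and -1.41 in *Vdr*-/- mice. For *Gpr6* it was -1.78 in wild-type mice. The *Drd1* result in wild-type mice was called by limma in all 13 alternatives (leaving out each mouse, and scaling by library totals, both chosen after seeing the data), with adjusted p from 0.00209 to 0.0125. The *Drd1* result in *Vdr*-/- mice was called in 8 of 13. Among the fits that leave out a *Vdr*-/- mouse, only that without PBS mouse 8 kept the call. The call was lost without morphine mouse 2.0, 2.1 or 2.2 or PBS mouse 7 or 9 (-1.28 to -1.49, adjusted p from 0.0503 to 0.0960). In either genotype, leaving out a mouse of the other genotype changes the error of the fit but not the difference itself. The *Gpr6* result in wild-type mice was called in all 13 (adjusted p from 0.00305 to 0.0314) and rests on 12.8 to 55.9 normalized counts per library in the VTA of those mice. In the VTA punches of wild-type mice the summed levels of dopamine neuron genes (47110.1 to 58908 normalized counts after PBS, 4628 to 12419 after morphine) and of hypothalamic and thalamic genes (2586 to 4757 and 13624 to 22209.9) did not overlap between the injections. In *Vdr*-/- mice both overlapped (11311 to 45336 and 12599 to 24493, and 2496 to 11003 and 3074 to 8234), whereas the sum of oligodendrocyte genes did not overlap in either genotype. The part of these cells was not tested.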

How the results depend on the processing

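The falls in the accumbens of *Vdr*-/- mice and the higher levels in the accumbens than in the VTA kept their direction under every alternative run, with 6 to 7 and 9 of 9 members called. The number of members called in the accumbens of wild-type mice was 3, and was 6 by DESeq2 and 0 to 5 when 1 mouse was left out. In the VTA the number was 1 in each genotype. In wild-type mice it was 2 with all 3 PBS mice and 0 to 3 without 1 mouse, and in *Vdr*-/- mice 0 to 2 without 1 mouse. The interaction in the VTA called 0 members and 0 to 1 without 1 mouse, and the region comparison of morphine in *Vdr*-/- mice called 1 and 0 to 2 without 1 mouse. Leaving out a PBS mouse leaves 1 in that arm of the VTA comparisons of morphine, which is assumed to vary like the other arm.

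Over all genes the counts called moved more: morphine in the accumbens of wild-type mice called 128 genes (0 to 627 over the alternatives), in the accumbens of *Vdr*-/- mice 3018 (1566 to 3168), in the VTA of wild-type mice 591 (0 to 2817) and in the VTA of *Vdr*-/- mice 1639 (0 to 2272). The genotype comparisons called 11 (2 to 65) and 30 (14 to 52) in the accumbens, and 64 (13 to 370) and 10 (4 to 94) in the VTA, after PBS and after morphine. The interaction called 0 (0 to 1) in the accumbens and 9 (0 to 226) in the VTA, and the change of the region difference with morphine 1080 (225 to 1248) in wild-type and 88 (0 to 209) in *Vdr*-/- mice.

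No called value changed sign. Among differences that were not called, other settings turned these. For genotype in the accumbens after morphine, *Drd3* was -0.012 by edgeR. For genotype in the VTA after PBS, *Drd1* was -0.011 by DESeq2, -0.015 by edgeR and -0.0063 with quantile normalization. For morphine in the accumbens of *Vdr*-/- mice, *Drd3* was 0.026 with library totals. For morphine in the VTA of wild-type mice, *Drd3* was 0.35 by DESeq2, 0.40 by edgeR and 0.15 with all 3 PBS mice, *Chrm4* was -0.012 with all 3 PBS mice, and *Gnal* was -0.017 with quantile normalization. For morphine in the VTA of *Vdr*-/- mice, *Drd2* was -0.24 and *Drd5* was 0.020 with all 3 PBS mice.

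Leaving out 1 mouse gave ranges that crossed 0 as follows. For genotype in the accumbens after morphine they were -0.23 to 0.087 (*Chrm4*), -0.11 to 0.046 (*Drd5*), -0.25 to 0.053 (*Adora2a*) and -0.087 to 0.20 (*Drd3*). For morphine in the accumbens of *Vdr*-/- mice they were -0.083 to 0.0053 (*Drd5*) and -0.13 to 0.11 (*Drd3*). For genotype in the VTA they were -0.056 to 0.63 (*Chrm4*), -0.18 to 0.15 (*Drd1*) and -0.045 to 0.074 (*Gnal*) after PBS, and -0.44 to 0.34 (*Gpr6*), -0.46 to 0.051 (*Adora2a*) and -0.20 to 0.080 (*Gnal*) after morphine. For morphine in the VTA they were -0.17 to 0.61 (*Chrm4*), -0.41 to 0.19 (*Adora2a*), -0.94 to 0.45 (*Drd3*) and -0.13 to 0.15 (*Gnal*) in wild-type mice, and -0.38 to 0.70 (*Drd2*) and -0.20 to 0.037 (*Gnal*) in *Vdr*-/- mice. For the interaction they were -0.19 to 0.028 (*Gpr6*), -0.12 to 0.054 (*Ppp1r1b*) and -0.042 to 0.074 (*Gnal*) in the accumbens, and -0.20 to 0.45 (*Drd1*) and -0.23 to 0.050 (*Gnal*) in the VTA. For the change of the region difference with morphine they were -0.26 to 0.86 (*Drd3*) in wild-type mice and -0.82 to 0.21 (*Drd2*) and -0.25 to 0.18 (*Drd5*) in *Vdr*-/- mice. The cause was not tested.

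The digit after the point pairs morphine mice of the 2 genotypes by number only: deviations of same-numbered mice correlated at -0.12 to 0.03 in the accumbens and -0.32 to -0.23 in the VTA. With it as a replicate block 0 members were called in either region, as without it. Without mouse as a replicate block, the comparison of regions called 9 of 9 members. Depth limits *Drd4*, and *Drd3*, *Adora2a* and *Gpr6* in the VTA.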
